A study of Homo sapiens with 6 samples.

Results

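The kinesin and centromere protein genes were described in Huh-7, a human hepatocellular carcinoma line, given a plasmid for ALKBH5 or serving as Control. They are all genes whose Entrez identifier maps to a KIF symbol made of a number with optional A, B or C, or to CENP followed by 1 letter. The rule found 57 genes of the 18030 in the count table, 37 with a KIF symbol and 20 with a CENP symbol, and used no measured value. KIF2B and KIF26A meet the rule by symbol and were not analysed here. KIFC1, KIFC2 and KIFC3 are kinesins outside the rule and are described among the partner genes.

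The oeALKBH5 group held 3 libraries labelled with the genotype ALKBH5 overexpression, and the Control group held 3 libraries labelled WT. ALKBH5 removes N6-methyladenosine from RNA. All cells were the same line, grown in medium with 10% serum; the plasmid went in by electroporation with 3 pulses of 1250 V and 20 ms, and RNA was taken 60 h later. That treatment text stands beside both groups, while the design calls the Control cells parental, so it is not stated whether Control cells were electroporated or given an empty plasmid. The labels number the libraries as biological replicates and name no separate cultures, so the p-values measure the spread between these libraries, which may be technical.

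Kinesins are motor proteins that walk along or take apart microtubules. Mitotic kinesins build the spindle, move chromosomes and complete cell division, and their mRNAs build up late in the cell cycle. Transport kinesins carry vesicles, organelles and RNA through the cell outside mitosis. CENP proteins mark the centromere and hold the kinetochore, the structure that links each chromosome to spindle microtubules; CENPE is both a CENP protein and a kinesin and was counted once, with the mitotic kinesins. In bulk RNA, more cells in division and more RNA per dividing cell cannot be told apart.

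Many genes of mitosis are known to carry a promoter element called CHR, often beside CCAAT boxes, that limits their transcription to late cell cycle phases. RefSeq promoter windows of 300 bases, 250 before and 50 after the annotated start on GRCh38.p14, were available for 48 of the 57 genes. The motifs searched were TTTGAA for CHR and CCAAT for the CCAAT box, both on either strand. Among mitotic kinesins 9 of 14 windows held a CHR match (64.3%) and 10 a CCAAT match (71.4%). Among transport kinesins 1 of 12 held CHR (8.33%) and 3 held CCAAT (25.0%). Over the 11484 genes tested that have a window the shares were 10.3% and 36.5%, and over all 27305 windows 15.4% and 35.7%. Matches in the last 50 bases before the start or after it were held by 8 of 14 mitotic windows for CHR, against 2.85% over the genes tested. Over all classes, 11 of the 22 windows of members called higher held CHR, and 4 of the 26 other windows. Those 26 include the untested KIF1A, KIF4B, KIF17 and KIF25, of which KIF4B holds CHR. Mitotic kinesins make up 11 of the 22, so this split is not separate from the one by class. A short E2F motif searched the same way was found in 1 of the 14, against 2.08%. Parts of 6 windows, 150 bases before to 30 after the start, are printed because they show both mitotic genes that rose and 1 that did not pass. KIF18B, KIF18A, KIF23 and CENPA rose and hold a CHR match, KIF4A holds one and did not pass, and CENPE rose most among mitotic kinesins and holds neither motif in its window. Capitals mark CHR and CCAAT matches, which do not overlap in these windows (TTCAAA and ATTGG are the reverse complements).
KIF18B, chr17:44947744-44947923 on the minus strand: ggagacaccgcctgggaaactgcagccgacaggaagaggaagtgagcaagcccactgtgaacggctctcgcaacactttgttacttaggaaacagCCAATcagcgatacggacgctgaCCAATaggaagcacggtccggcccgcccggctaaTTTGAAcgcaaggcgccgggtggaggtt
KIF18A, chr11:28108127-28108306 on the minus strand: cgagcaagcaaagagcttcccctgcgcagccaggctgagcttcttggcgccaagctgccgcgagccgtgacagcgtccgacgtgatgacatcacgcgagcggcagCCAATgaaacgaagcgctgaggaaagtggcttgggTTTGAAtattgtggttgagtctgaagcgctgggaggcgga
KIF23, chr15:69414199-69414378 on the plus strand: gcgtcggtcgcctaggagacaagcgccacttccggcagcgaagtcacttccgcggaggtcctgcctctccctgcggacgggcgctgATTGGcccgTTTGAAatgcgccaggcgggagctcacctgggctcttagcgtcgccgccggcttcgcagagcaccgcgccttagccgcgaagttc
CENPA, chr2:26785906-26786085 on the plus strand: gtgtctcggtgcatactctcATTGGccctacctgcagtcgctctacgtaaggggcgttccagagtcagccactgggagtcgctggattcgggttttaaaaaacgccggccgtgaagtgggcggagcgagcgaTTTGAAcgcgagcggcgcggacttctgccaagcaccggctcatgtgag
KIF4A, chrX:70289954-70290133 on the plus strand: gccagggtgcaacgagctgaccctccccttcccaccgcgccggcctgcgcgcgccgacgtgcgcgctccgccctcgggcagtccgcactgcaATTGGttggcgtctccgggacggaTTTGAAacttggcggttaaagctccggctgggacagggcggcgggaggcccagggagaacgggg
CENPE, chr4:103198314-103198493 on the minus strand: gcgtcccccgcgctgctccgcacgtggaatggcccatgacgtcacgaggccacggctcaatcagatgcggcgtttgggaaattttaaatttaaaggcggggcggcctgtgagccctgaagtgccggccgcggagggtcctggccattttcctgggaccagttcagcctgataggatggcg

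Counted with the start as base 1, the CHR match of KIF18B begins at base 3, and its CCAAT matches begin 55 and 32 bases before the start. In KIF18A it begins 10 bases before the start and the CCAAT match 45 before. In KIF23 the CHR match begins 55 and the inverted CCAAT match 64 bases before the start. CENPA has a CHR match at 18 and an inverted CCAAT match at 130 bases before the start. KIF4A has its CHR match 34 bases before the start and an inverted CCAAT match at 58. A match of these letters is a description and does not show that a factor binds there.

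**Figure D1:**
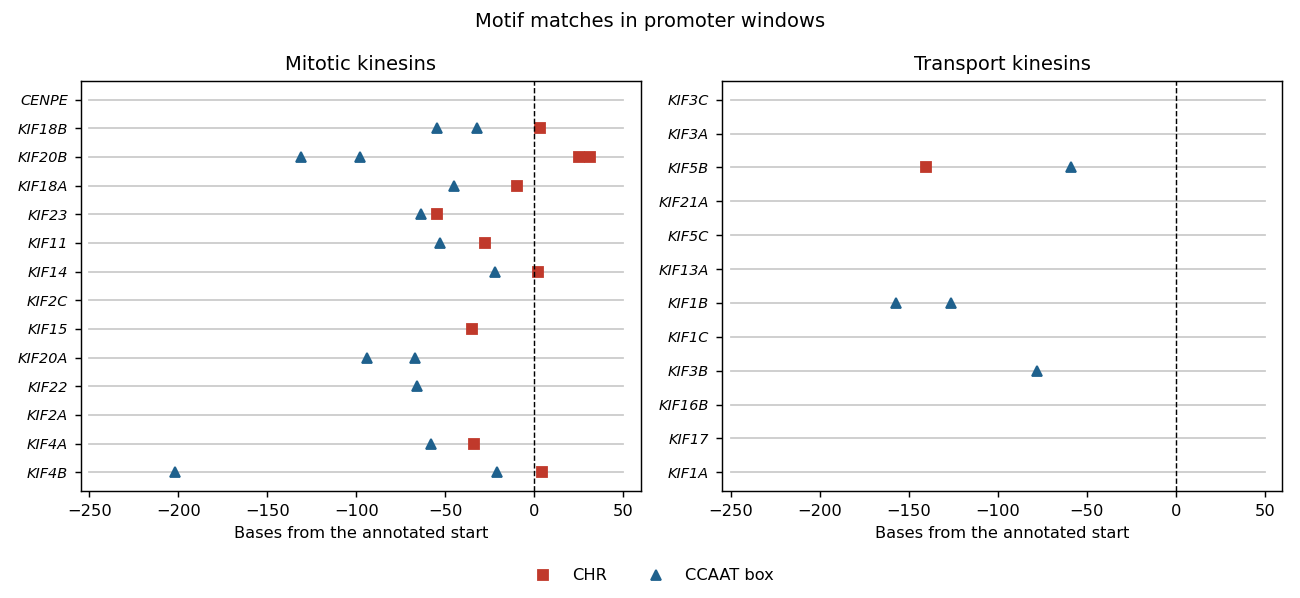
Positions of CHR (squares) and CCAAT (triangles) matches in the promoter windows of 14 mitotic and 12 transport kinesins; the x axis is the distance in bases from the annotated start (dashed line), and genes run down by log2 fold change, untested genes last. CHR matches stand in 9 of the 14 mitotic windows and in 1 of the 12 transport windows.

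Estimated counts summed to between 18607084 and 18826479 per oeALKBH5 library and between 19265686 and 19378030 per Control library. The share that fell on the members was 0.305% to 0.315% for oeALKBH5 and 0.267% to 0.273% for Control. By edgeR's quasi-likelihood test, at an adjusted p under 0.05, 42.8% of all 14168 tested genes were called, 20.8% as higher and 22.0% as lower. ALKBH5 itself held 169, 133 and 110 CPM in oeALKBH5 libraries, against 70.5, 74.2 and 75.5 CPM in Control libraries. CPM here are counts scaled to library size after TMM adjustment. The log2 fold change of ALKBH5 was 0.90 (SE 0.177, adjusted p = 0.0154). Adjusted p was 0.0529 and 0.0589 when Control replicate 2 or 3 was left out, and 0.0538 with the replicate number as a block, so the call did not hold there. All 6 hepatocyte markers (ALB, AFP, APOA1, APOB, SERPINA1, TTR) were abundant and all were lower in oeALKBH5. Their log2 fold changes ran from -1.05 for APOA1 to -0.16 for APOB. The APOB call was lost with library size alone (edgeR adjusted p = 0.104). Markers of other cell types moved too: COL1A1 (1.07), SNAP25 (0.42) and SYT1 (0.27) were higher and PECAM1 (-0.70) lower, while CD3E, VWF, CDH5, DCN and RBFOX3 were too low to test. The SYT1 call held in 10 of 15 alternative fits. CD68, PTPRC and PDGFRB did not pass, at -0.00, -0.20 and -0.20. Summed, the hepatocyte markers held 17023 to 18558 CPM in oeALKBH5 and 26981 to 27445 CPM in Control. The 3 neuron markers held 21.6 to 23.9 CPM in oeALKBH5 and 16.6 to 19.3 CPM in Control, and the 3 endothelial markers 11.3 to 11.9 CPM in oeALKBH5 and 17.3 to 21.1 CPM in Control. The 3 fibroblast markers held 13.4 to 14.5 CPM in oeALKBH5 and 13 to 13.5 CPM in Control, and the 3 leukocyte markers 131 to 156 CPM in oeALKBH5 and 138 to 142 CPM in Control. The part of cell composition in the results below was not tested.

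Of the 57 members 52 passed the expression filter, each in all 6 libraries. In oeALKBH5 cells 25 of the 52 were higher and 4 lower, beside the 20.8% and 22.0% of all tested genes. As shares these are 48.1% and 7.69%. With library size alone, in place of TMM scaling, 31 members were higher and 1 lower, and 30.1% and 14.4% of all tested genes; the median of all tested genes was then 0.085. The members' median log2 fold change with TMM scaling was 0.18, against 0.0062 over all tested genes. The changes were modest, with a median absolute log2 fold change of 0.36 among the called members and 1.98-fold as the largest. In CPM, 27 members had all oeALKBH5 libraries above all Control libraries and 7 had all below, against 25.8% and 27% of tested genes. KIF1A, KIF4B, KIF17, KIF19 and KIF25 had at most 8 counts in any library and were not tested. KIF17, a motor of cilia and dendrites, had 6, 7 and 8 counts in oeALKBH5 and 6, 4 and 6 in Control, and the neuronal KIF1A 0, 4 and 1 in oeALKBH5 and 0, 2 and 0 in Control.

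**Figure D2:**
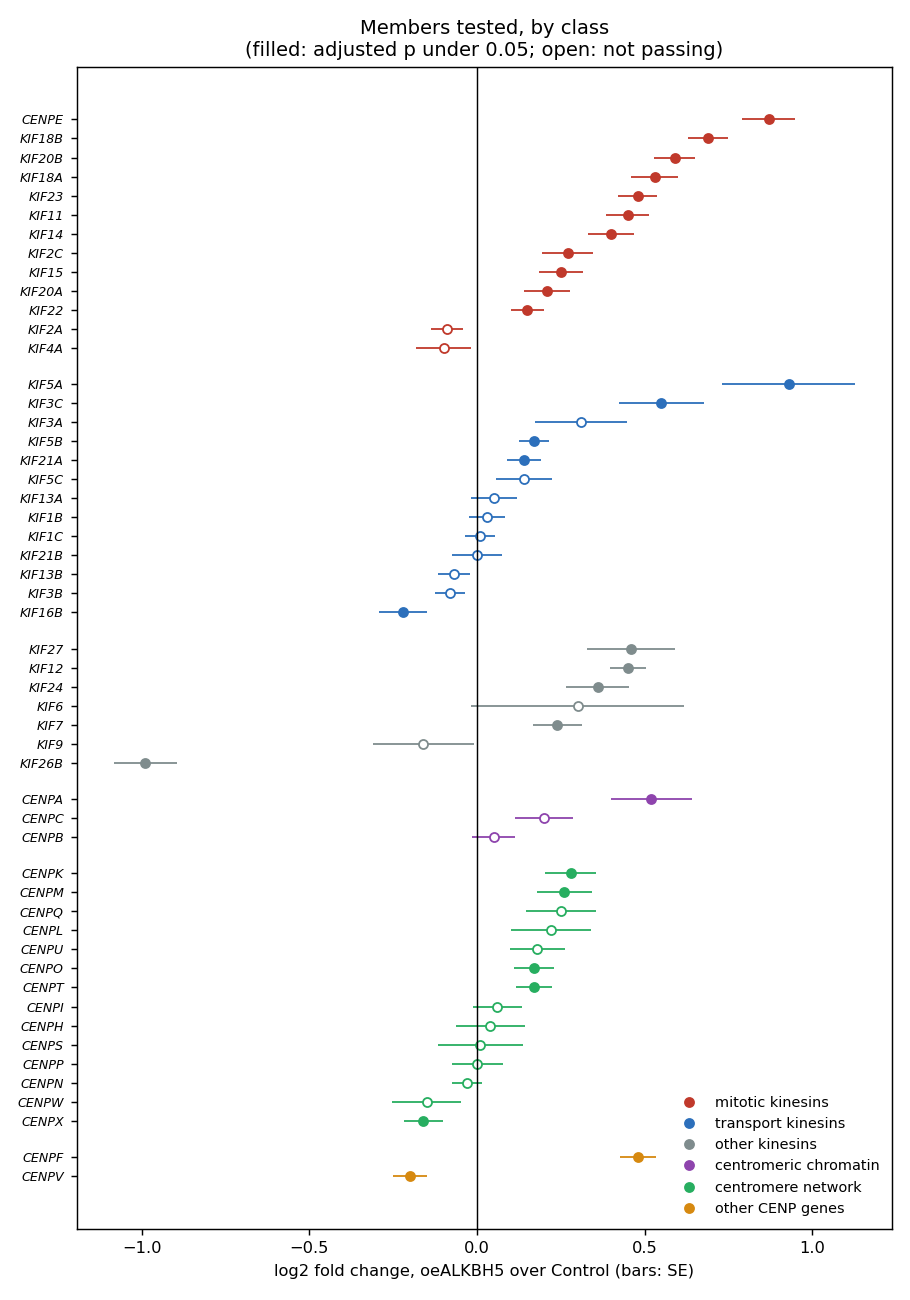
Log2 fold change, oeALKBH5 over Control, of the 52 tested members with its standard error (x axis), grouped by class down the page; filled points passed an adjusted p under 0.05 and open points did not. Of 13 mitotic kinesins 11 are filled to the right of 0, against 4 of 13 transport kinesins, among them KIF5A at 0.93, and 4 of 14 genes of the centromere network.

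Mitotic kinesins rose. Of the 13 tested 11 were higher (84.6%), 0 lower and 2 did not pass, with a median log2 fold change of 0.40. Over all tested genes 20.8% were higher and 22.0% lower. At an unadjusted p under 0.05 the count of lower ones was also 0, and DESeq2 likewise called 11 higher and 0 lower. The proliferation markers MKI67, TOP2A and PCNA moved the same way in sum. They held 919 to 964 CPM in oeALKBH5 and 757 to 785 CPM in Control. PCNA by itself did not pass by edgeR (0.07, adjusted p = 0.284), and its groups overlap. The part of these markers in the result was not tested. CENPE, which carries chromosomes to the spindle equator, held 30.8, 33.4 and 33.5 CPM in oeALKBH5 libraries, against 19.9, 17.5 and 16 CPM in Control libraries. The groups do not overlap, and the level was 1.83 times that of Control (log2 fold change 0.87, SE 0.0784, adjusted p = 3.37e-08). KIF18B, a kinesin-8 at the ends of astral microtubules, held 54.1, 58.3 and 57.2 CPM in oeALKBH5 and 36.9, 34.7 and 33.3 CPM in Control. It was 1.62-fold higher (0.69, SE 0.059, adjusted p = 1.58e-08). Its relative KIF18A, which damps chromosome movements at the spindle equator, held 34.0, 38.7 and 39.0 CPM against 26.4, 26.4 and 24.4 CPM in Control, 1.45-fold higher (0.53, SE 0.0691, adjusted p = 4.39e-06).

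KIF20B, needed to finish the separation of daughter cells, stood at 1.5 times Control, with 44.5, 45.7 and 45 CPM in oeALKBH5 libraries and 28.6, 32.0 and 29.5 CPM in Control libraries (0.59, SE 0.0609, adjusted p = 2.59e-07). KIF23 forms the centralspindlin complex of the midzone with RACGAP1. It held 84.0, 90.7 and 88.0 CPM in oeALKBH5, against 57.2, 67.1 and 63.4 CPM in Control (0.48, SE 0.0582, adjusted p = 1.72e-06). For both genes the lowest oeALKBH5 library lay above the highest Control library. KIF14, which binds the midzone protein PRC1, rose by 0.40 (SE 0.0693). KIF20A brings the chromosomal passenger complex to the midzone and was higher by 0.21 (adjusted p = 0.0236), but its groups overlap: 71.7, 84.4 and 90.9 CPM in oeALKBH5 and 71.8, 70.5 and 71.9 CPM in Control. That call was lost in 5 of the 6 fits without 1 library, all but the one without oeALKBH5 replicate 1, with adjusted p from 0.0591 to 0.0852.

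Among spindle motors, KIF11, the motor that pushes the spindle poles apart, rose by 0.45 (SE 0.0644, adjusted p = 1.45e-05), and KIF15, which can stand in for it, by 0.25 (SE 0.0648). Of the kinesins that take microtubules apart, KIF2C at centromeres rose by 0.27 (SE 0.0754, adjusted p = 0.00968). KIF2A, which acts at spindle poles, did not pass although its groups do not overlap: it held 106, 107 and 106 CPM in oeALKBH5 and 111, 117 and 111 CPM in Control (-0.09, 95% interval -0.18 to 0.01, adjusted p = 0.149). With an offset for transcript length it passed as lower (adjusted p = 0.0102). KIF22 and KIF4A are motors bound to chromosome arms. KIF22, the most abundant mitotic kinesin per length at 67.4 ± 1.69 FPKM in oeALKBH5 and 57.5 ± 2.47 FPKM in Control (SD, n = 3 each), was higher by 0.15 (SE 0.0491, adjusted p = 0.017), with adjusted p of 0.117 and 0.0813 when Control replicate 2 or 3 was left out. KIF4A held 45.4, 53.1 and 60.5 CPM in oeALKBH5, around the 57.6, 57.3 and 55.1 CPM of Control, and did not pass (-0.10, 95% interval -0.26 to 0.06, adjusted p = 0.367). KIF4B is a near-identical copy of KIF4A, so reads between them are uncertain; it had 0, 4 and 4 counts in oeALKBH5 and 2, 1 and 0 in Control.

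oeALKBH5 replicate 1 was the lowest of the 3 oeALKBH5 libraries in all 13 tested mitotic kinesins and in 12 of 14 genes of the centromere network. Among the 13 transport kinesins it was the lowest in 4, and among all 52 tested members in 35. The share over all tested genes was not counted. The same library had the highest ALKBH5 level, and a link between the 2 was not tested. Summed over the class, mitotic kinesins held 797, 866 and 888 CPM in oeALKBH5 and 704, 715 and 690 CPM in Control, so replicate 1 lay between the other oeALKBH5 libraries and Control. Without replicate 1, 11 of the 13 were higher, and 9 to 11 over all fits without 1 library. Without oeALKBH5 replicate 3, KIF4A was called lower (-0.20, adjusted p = 0.0143), and without replicate 1 it was at 0.01.

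**Figure D3:**
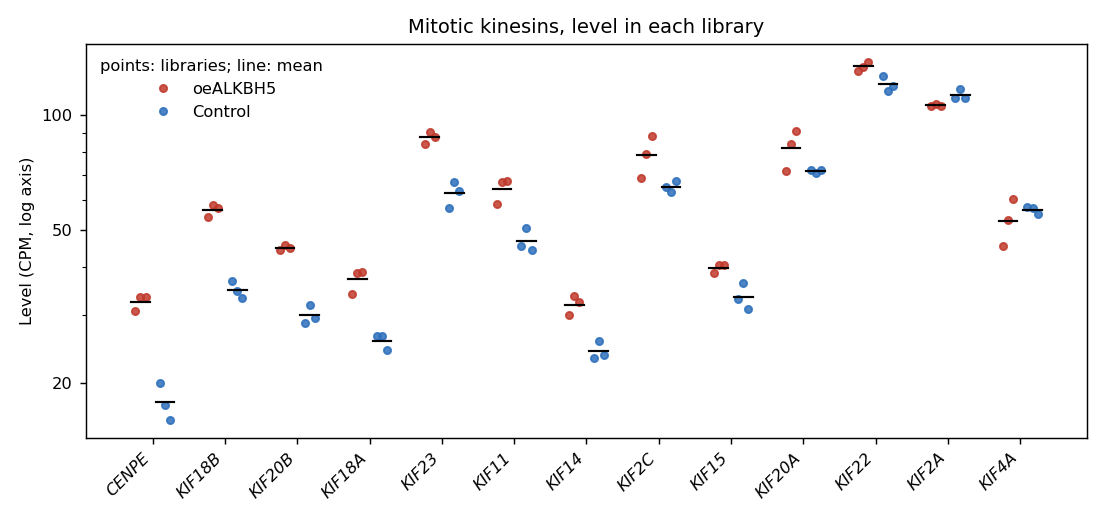
Level of the 13 tested mitotic kinesins in each library in CPM on a log axis, oeALKBH5 left of Control, with a line at each mean; genes run left to right by log2 fold change. From CENPE to KIF15 and in KIF22 the oeALKBH5 points lie above all Control points, while they overlap in KIF20A and KIF4A and lie below in KIF2A.

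Of 13 transport kinesins tested 4 were higher (30.8%), 1 lower (7.69%) and 8 did not pass, with a median log2 fold change of 0.05. Over all tested genes 20.8% were higher and 22.0% lower. All 13 lie in the longest of 3 equal groups of tested genes by length. In that group 29.6% were higher and 12.7% lower, so the share of transport kinesins higher was near that background. KIF1C, which carries vesicles and is the most abundant transport kinesin per length at 75.3 ± 2.81 FPKM in oeALKBH5 and 71.3 ± 0.769 FPKM in Control (SD, n = 3 each), held 427, 395 and 421 CPM against 419, 412 and 408 CPM in Control. The groups overlap, and the difference was 0.01 with a 95% interval of -0.08 to 0.09. KIF1B, a carrier of mitochondria and vesicles, was likewise at 0.03 (-0.07 to 0.13), and the endosome motors KIF13A and KIF13B at 0.05 and -0.07. KIF16B, which moves early endosomes, was the member that fell (-0.22, SE 0.0715, adjusted p = 0.0181), with 18.5, 19.2 and 17.9 CPM in oeALKBH5 and 21.7, 22.0 and 20.9 CPM in Control, all of them above the oeALKBH5 libraries. That call was lost in 5 of 15 alternatives, with adjusted p up to 0.127.

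The transport kinesins that rose were of 3 families. KIF5B, the ubiquitous conventional kinesin heavy chain, held 51.0, 53.4 and 53.2 FPKM in oeALKBH5 and 42.3, 46.6 and 44.7 FPKM in Control, which do not overlap (log2 fold change on counts 0.17, SE 0.0454, adjusted p = 0.00558). With the length offset it was at 0.09 and did not pass (adjusted p = 0.095). KIF5A, its mostly neuronal relative, averaged 0.497 ± 0.0252 FPKM in oeALKBH5 and 0.25 ± 0.0173 FPKM in Control (SD, n = 3 each). It held 2.49, 2.80 and 2.82 CPM in oeALKBH5, against 1.29, 1.43 and 1.54 CPM in Control (0.93, SE 0.199, adjusted p = 8.45e-04). The related KIF5C did not pass (0.14, SE 0.0824). In the kinesin-2 family KIF3C rose by 0.55 (SE 0.126, adjusted p = 0.00151), with 8.99, 7.21 and 7.93 CPM in oeALKBH5 and 5.75, 4.75 and 6 CPM in Control. KIF3A, its relative that pairs with KIF3B, was at 0.31 (SE 0.138, adjusted p = 0.0793), with 5.61, 5.81 and 5.95 CPM in oeALKBH5 just above the 3.92, 5.49 and 4.62 CPM of Control. KIF3B averaged 22.3 FPKM in both groups and was at -0.08 (SE 0.0453, adjusted p = 0.191). KIFAP3, the adaptor subunit of this motor, fell by 0.48 on the log2 scale (adjusted p = 5.83e-04). KIF21A, a kinesin-4 that restrains microtubule growth, rose by 0.14 (adjusted p = 0.0289), a call lost with the length offset and without oeALKBH5 replicate 2 or Control replicate 1 or 3, while KIF21B lay at -0.00 (95% interval -0.15 to 0.15).

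**Figure D4:**
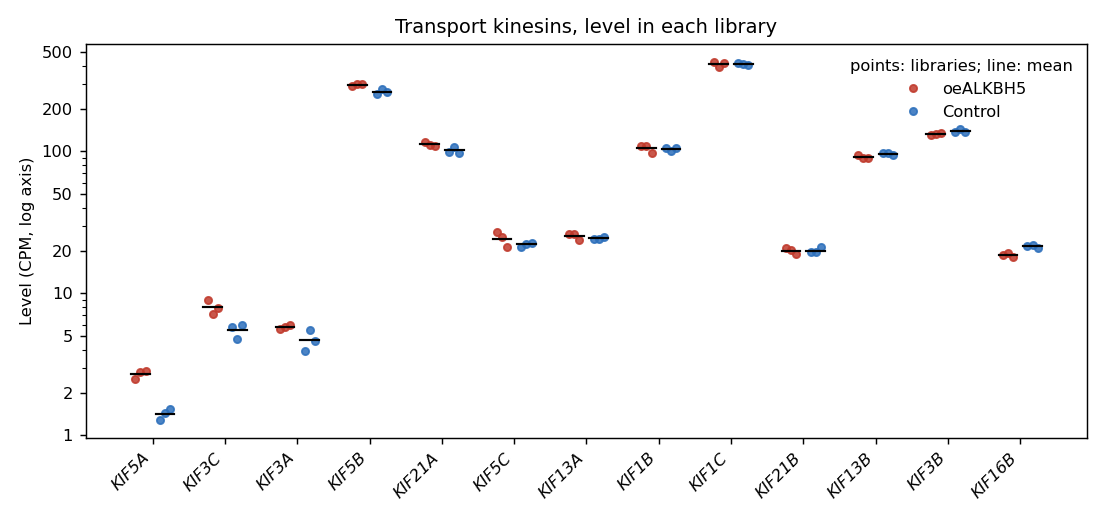
Level of the 13 tested transport kinesins in each library in CPM on a log axis, oeALKBH5 left of Control, with a line at each mean; genes run left to right by log2 fold change. KIF5A and KIF3C stand apart between groups, while KIF1C, at 395 to 427 CPM in oeALKBH5 and 408 to 419 CPM in Control, overlaps.

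The other kinesins, of cilia, signalling and unlike roles, included the largest fall among the members. KIF26B, which takes part in kidney development and cell adhesion, held 10.3, 9.19 and 11.1 CPM in oeALKBH5 libraries, against 20.5, 22.2 and 18.1 CPM in Control libraries. That is a 1.98-fold lower level (-0.99 on the log2 scale, SE 0.0946, adjusted p = 8.41e-08), and the 15 alternative fits gave -1.15 to -0.91. Of the 7 tested in this class 4 rose (57.1%) and 1 fell (14.3%), beside 20.8% and 22.0% of all tested genes. KIF12, a kinesin of kidney and liver epithelia that is mutated in inherited cholestasis, held 63.9, 64.7 and 61.2 CPM in oeALKBH5 and 47.2, 46.8 and 45 CPM in Control (0.45, SE 0.0534, adjusted p = 1.48e-06). It was the most abundant of the class per length, at 34.8 ± 1.67 FPKM in oeALKBH5 and 24.3 ± 0.849 FPKM in Control (SD, n = 3 each). KIF7, a ciliary regulator of Hedgehog signalling, held 26.3, 27.5 and 27.9 CPM in oeALKBH5 and 24.2, 24.2 and 20.9 CPM in Control (0.24, adjusted p = 0.0122). Its relative KIF27 held 6.24, 6.95 and 5.95 CPM in oeALKBH5, against 4.57, 4.17 and 5.20 CPM in Control (0.46, adjusted p = 0.0081). Neither pair of groups overlaps. KIF24, which takes microtubules apart at centrioles, held 15.7, 18 and 17 CPM in oeALKBH5 and 14, 11.3 and 14.2 CPM in Control (0.36, adjusted p = 0.00373). Leaving out Control replicate 3 ended the call of KIF7 (0.112), and leaving out Control replicate 2 that of KIF27 (0.0518). KIF6 (0.30, SE 0.317) and KIF9 (-0.16, SE 0.151) did not pass.

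At the centromere CENPA rose, and CENPB and CENPC did not pass. CENPA, the histone H3 variant that marks the centromere, held 12.6, 15.7 and 18.3 CPM in oeALKBH5 and 11.8, 9.77 and 10.8 CPM in Control. The groups do not overlap, and the level was 1.44-fold higher (0.52, SE 0.121, adjusted p = 0.0025), with replicate 1 close to the highest Control library. CENPC, which binds the CENPA nucleosome, was at 0.20 and missed the threshold (SE 0.0863, adjusted p = 0.064), although its 13.3, 12.7 and 13.5 CPM in oeALKBH5 all lay above the 11.3, 11.8 and 11.1 CPM of Control. CENPB, which binds a satellite DNA box and is the most abundant of the 3 at 38.8 ± 3.74 FPKM in oeALKBH5 and 35.5 ± 1.29 FPKM in Control (SD, n = 3 each), was at 0.05 (95% interval -0.07 to 0.18).

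The centromere network is the inner kinetochore complex built on CENPA and CENPC. Of its 14 genes 4 were higher (28.6%), 1 lower (7.14%) and 9 did not pass. Over all tested genes 20.8% were higher and 22.0% lower, so the share higher was near the background. The median log2 fold change was 0.12 in the network, whose genes are given here by subcomplex. CENPK, of the CENPH, CENPI, CENPK and CENPM group, was at 0.28 (adjusted p = 0.00675), with 33.2, 41.7 and 39.5 CPM in oeALKBH5 and 30.7, 30.7 and 33.0 CPM in Control. CENPM of the same group held 21.7, 23.0 and 26.8 CPM in oeALKBH5, against 21.1, 19.2 and 19.5 CPM in Control (0.26, SE 0.0817, adjusted p = 0.0144), and CENPH and CENPI were at 0.04 and 0.06. CENPO, with 47.1, 46.4 and 47.2 CPM in oeALKBH5 and 41.8, 39.1 and 44.1 CPM in Control, rose by 0.17 (SE 0.0584, adjusted p = 0.0216). Its partners CENPP, CENPQ and CENPU did not pass, at 0.00, 0.25 and 0.18 (adjusted p = 0.993, 0.0621 and 0.0899). CENPQ held 9.77, 10.1 and 10.3 CPM in oeALKBH5, above the 7.52, 9.40 and 8.44 CPM of Control, while CENPU overlapped, with 18.9, 21.4 and 22.7 CPM in oeALKBH5 and 17.5, 20.1 and 18 CPM in Control. CENPT, which links the inner to the outer kinetochore, rose by 0.17 (SE 0.0548, adjusted p = 0.0146), with 89.3, 82.6 and 77.6 CPM in oeALKBH5, all above the 73.3, 73.1 and 74.9 CPM in Control.

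The histone-fold partners of CENPT are CENPS, CENPW and CENPX, and none of these was called higher by edgeR. CENPX held 46.8, 48.1 and 52.7 CPM in oeALKBH5 and 57.5, 52.9 and 54.4 CPM in Control. It was lower by edgeR (-0.16, SE 0.0588, adjusted p = 0.0345) and lost that call in 8 of 15 alternatives, turning to 0.04 with the length offset. CENPS was at 0.01 and CENPW at -0.15, neither passing; CENPS and CENPX also act in DNA repair. CENPN and CENPL, which contact the CENPA nucleosome together, were at -0.03 and 0.22, neither passing. Per length CENPN and CENPX were the most abundant of the network, at 72.0 ± 2.1 and 71.4 ± 4.41 FPKM in oeALKBH5 and 74.1 ± 4.06 and 75.9 ± 1.67 FPKM in Control (SD, n = 3 each). The calls of CENPK, CENPM, CENPO and CENPT were each lost in 1 to 4 of 15 alternatives, with adjusted p up to 0.15.

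Outside the network, CENPF, a large protein of the outer kinetochore corona, rose by 0.48 (SE 0.0548, adjusted p = 9.7e-07). Its level was 111, 124 and 124 CPM in oeALKBH5 and 82.7, 90.5 and 84.4 CPM in Control. CENPV, which stabilizes microtubules, was lower by 0.20 on the log2 scale (log2 fold change -0.20, adjusted p = 0.00466), with 57.0, 56.6 and 60.4 CPM in oeALKBH5, all below the 67.4, 65.5 and 66.4 CPM in Control. The CENPV call was lost with library size alone (adjusted p = 0.0702) and with the length offset (0.366).

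**Figure D5:**
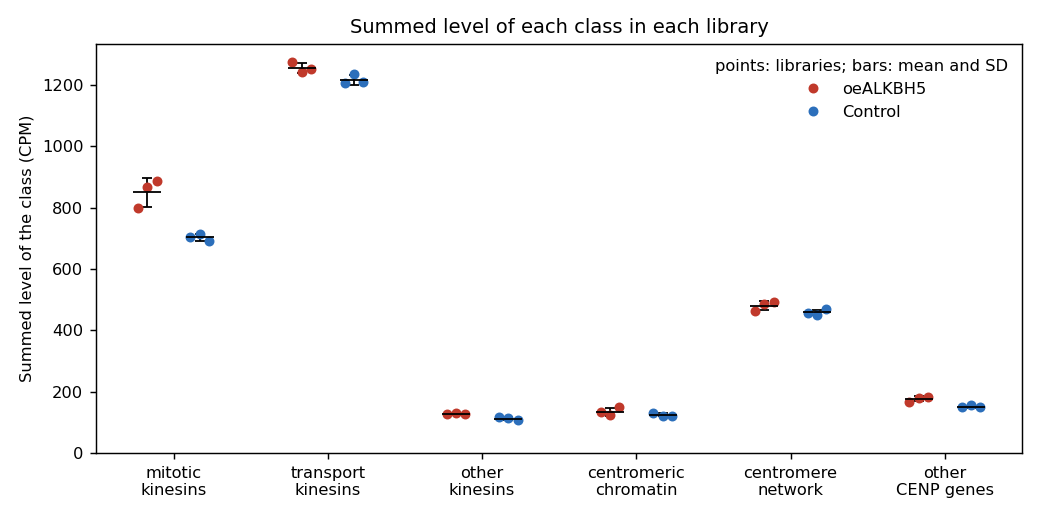
Summed level in CPM of the members of each class in each library (points), with the mean and SD of 3 libraries, oeALKBH5 left of Control. Mitotic kinesins sum to 850.0 ± 47.5 CPM in oeALKBH5 and 703 ± 12.1 CPM in Control, while transport kinesins sum to 1255 ± 16.6 CPM in oeALKBH5 and 1215 ± 15.0 CPM in Control.

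Summed levels were described without a test. Mitotic kinesins held 1.21 times the Control level in oeALKBH5 and transport kinesins 1.03 times. Other kinesins stood at 1.14 times and the centromere network at 1.05 times. For the mitotic kinesins 1.26 times was found on the FPKM scale and 1.28 times with library size alone.

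Partner genes of the same machinery were listed by function. Of 62 genes in 8 lists, 25 were higher and 9 lower in oeALKBH5, beside 20.8% and 22.0% of all tested genes. In each of the 15 alternatives 18 of the 25 and 4 of the 9 kept their call. Of the spindle midzone and assembly genes 7 of 8 were higher and 0 lower, with a median of 0.31, and CKAP5 did not pass. ASPM, a spindle pole protein, held 178, 195 and 196 CPM in oeALKBH5 and 116, 125 and 120 CPM in Control (0.66, adjusted p = 3.61e-09), and ECT2, the exchange factor that KIF23 and RACGAP1 recruit to the midzone, rose by 0.41 (adjusted p = 1.08e-06). Of 3 proliferation markers MKI67 (0.34) and TOP2A (0.42) rose, and PCNA was at 0.07. The CENP-A loading list had 2 of 5 genes higher and 1 lower, and 2 did not pass. Its chaperone HJURP rose by 0.50 (adjusted p = 1.17e-07), while MIS18A was lower (-0.22), a call lost in 6 of 15 alternatives.

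The outer kinetochore list had 4 of 10 higher (40.0%) and 1 lower (10.0%). For this list and those below, the shares over all tested genes were 20.8% higher and 22.0% lower. KNL1 (0.33, adjusted p = 2.34e-04), ZWINT (0.20), NDC80 (0.33) and SPC25 (0.26) were higher, and PMF1 was lower (-0.20). PMF1 lost its call with library size alone and with the length offset, and SPC25 without oeALKBH5 replicate 2. Of 6 corona and dynein recruitment genes 3 were higher, among them KNTC1 (0.15) and NDE1 (0.43), a partner of CENPF, and 1 was lower, ZW10 (-0.20). The calls of KNTC1 and ZW10 were lost in 5 and 6 of 15 alternatives, and the groups of ZW10 overlap. Kinesin-14 and cofactor genes had 4 of 13 higher (30.8%) and 2 lower (15.4%), near the shares over all tested genes. Of the 4 kinesin light chains, which tie cargo to KIF5 motors, 1 was higher and 1 lower. KLC2 held 193, 175 and 170.0 CPM in oeALKBH5 and 155, 148 and 140.0 CPM in Control (0.28, adjusted p = 2.8e-04). KLC4 held 43.7, 49.8 and 53.5 CPM in oeALKBH5 and 65.9, 65.3 and 65.6 CPM in Control (-0.42, adjusted p = 2.41e-05), while KLC1 (-0.00, adjusted p = 0.95) and KLC3 (-0.14, adjusted p = 0.585) did not pass. Of the kinesin-14 genes KIFC1 rose by 0.19 (adjusted p = 0.00639; 0.0502 without Control replicate 2), and KIFC3 (0.12, adjusted p = 0.0505) and KIFC2 (0.11) did not pass. MAPK8IP3, a kinesin cargo adaptor, rose by 0.35 (adjusted p = 4.13e-04). Cytoplasmic dynein had 2 of 7 higher (DYNC1LI2, 0.20, and DYNC1H1, 0.12) and 3 lower (DYNC1I2, -0.22, DYNC1LI1, -0.16, and DCTN2, -0.13), with a median of -0.13. The calls of DYNC1H1, DCTN2 and DYNC1LI1 were lost in 6, 5 and 4 of 15 alternatives, and DYNC1H1 turned to -0.08 with the length offset. Of the tubulins 1 of 10 was higher (TUBB6, 0.24) and 1 lower (TUBB2A, -0.36), each share below that over all tested genes. Several tubulin genes are near-identical to each other, so their separate values are uncertain.

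Transcript length moves with these fold changes. Over the 14168 tested genes Spearman's rho of effective length and log2 fold change was 0.26, and over the 52 members 0.15; genes share libraries and are not replicates. Of all tested genes in the longest of 3 equal groups, over 4055 nt, 29.6% were higher and 12.7% lower, against 12.4% and 33.4% in the shortest, under 2270 nt. All 13 tested transport kinesins lie in the longest group, where 4 were higher (30.8%) and 1 lower. Of the mitotic kinesins 7 lie there, 5 of them higher, and 5 of 5 in the middle group were higher, where 20.5% of all tested genes were. With a length offset fitted in each library, 11 of 13 mitotic kinesins were higher and 1 lower (median 0.31), beside 19.4% and 20.8% of all tested genes, and 2 of 13 transport kinesins were higher and 3 lower (median -0.02).

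In the authors' FPKM values, tested with limma on log2(FPKM + 1), 27 of 48 members were higher and 2 lower, beside 29.4% and 16.5% of 12016 genes. The members lower there were KIF26B and CENPV. The 13 mitotic kinesins again had 11 higher and 0 lower, and 7 of 14 network genes were higher.

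Few single transcripts passed. The tables list 253 transcripts of the 57 members, up to 20 per gene, and 170 were tested. By edgeR 2 were higher, of CENPF (0.55, adjusted p = 0.0266) and KIF20B (0.81, adjusted p = 0.0463), and 1 lower, of KIF26B (-1.16, adjusted p = 0.0381), beside 0.281% and 0.732% of 45502 transcripts. At an unadjusted p under 0.05 there were 15 higher and 4 lower. The leading transcript's share of its gene's counts lay above all Control libraries in 4 of 41 members and below in 3, against 5.96% and 8.09% of 9874 genes with 2 or more transcripts; these shares are near the background. KIF1C and KIF26B, chosen after their values were seen, are among the 3 below. In KIF1C, with 2 transcripts, the leading one took 73.2%, 72.3% and 73.0% in oeALKBH5 and 74.0%, 74.1% and 73.9% in Control. In KIF26B, also with 2, it took 93.8%, 89.1% and 82.2% in oeALKBH5 and all counts in each Control library.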

How the data were processed

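RNA of 6 Huh-7 libraries, 3 oeALKBH5 and 3 Control, was measured with an mRNA kit, per the labels. The deposited tables hold estimated counts for RefSeq transcripts, not scaled between libraries, and the authors' FPKM for the same transcripts, scaled by length and depth. The submitters' processing notes name RSEM 1.2.8, Bowtie2 2.2.5, HISAT2 2.1.0 and the build GRCh38.p13. What each did, and whether strand was used, is not stated there.

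Estimated counts were summed by Entrez identifier and rounded; RefSeq symbols matched 17881 of 18030 genes. Groups were compared in R 4.3.3 by edgeR 4.0.16, two-sided, with robust quasi-likelihood fits and TMM scaling. Genes passed filterByExpr with min.count 10, and p-values were adjusted over all of them by Benjamini and Hochberg. Standard errors came from dividing the size of each log2 fold change by the root of its F, and 95% intervals from the normal distribution. CPM used TMM-scaled library sizes. FPKM summed per gene was tested with limma 3.58.1 on log2(FPKM + 1), for genes with at least 1 in 3 libraries; this scale understates changes of low genes. Effective length was the ratio of count to FPKM. Promoters were the first window listed per gene by RefSeq. Scripts were tested on simulated data, where the transcript fit recovered few changes. Figures used matplotlib 3.10.9.

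The members, classes and partner lists were chosen with earlier results of these data known. Named by rule were, per class, up to 5 called members per direction, the most abundant per length and those with adjusted p between 0.05 and 0.10; in partner lists up to 2 per direction by p. Other genes were named after their values were seen, and 1 partner gene is not reported here by itself. Replicate numbers did not pair the libraries (correlations of same-numbered deviations from -0.019 to 0.016). Replicates differed by more than counting noise (chi-square per degree of freedom 3.14 to 7.5 in oeALKBH5 and 1.66 to 2.36 in Control), so all were kept. Alternatives were DESeq2 1.42.0, its size factors in edgeR, scaling by upper quartile or by library size alone, no filter, a mean count of at least 50, limma-voom, a replicate block, the length offset, an adjusted p under 0.01, other pseudocounts and leaving out each library.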

Additional observations from a re-analysis of the deposited data

How the results depend on the processing

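Over all alternatives on gene counts, 18 to 31 members were higher and 1 to 5 lower; of the 25 higher members 15 kept their call in each of the refits, and 1 of the 4 lower members, KIF26B, did. With library size alone, which moves the median of all tested genes to 0.085, 31 members were higher and 1 lower, 4 partner genes were lower, and 4266 genes in all were higher and 2047 lower, against 2948 and 3114. By DESeq2 2 members were lower. At an adjusted p under 0.01, 2 members and 5 partner genes were lower. With the replicate number as a block 25 members were higher and 4 lower, and it changed the call of no called member. Leaving out 1 library at a time gave 20 to 25 members higher and 2 to 5 lower, 21 to 26 partner genes higher and 5 to 10 lower, and 2313 to 3067 genes higher and 2565 to 3286 lower. On FPKM it gave 24 to 29 members higher and 0 to 3 lower, and for member transcripts 0 to 1 higher and 0 lower. With a mean count of at least 50 per transcript 4 were higher. The log2 ratio of summed levels moved beyond the spread of libraries on FPKM to -0.014 for CENPF with CENPV, 0.384 for other kinesins and 0.125 for transport kinesins. With library size alone it was 0.301, 0.272 and 0.126 for these, and 0.147 for the centromere network. FPKM divides by length, so long genes weigh less in its sums than in CPM, and it is also not scaled by the TMM factors. For transport kinesins the 0.125 on FPKM is close to the 0.126 with library size alone. The part of each in the moves on FPKM was not tested. Library size alone leaves out the TMM factors, which were 1.019 to 1.036 in oeALKBH5 and 0.9665 to 0.9795 in Control. All classes therefore moved up alike, mitotic kinesins from 0.275 to 0.354 and centromeric chromatin from 0.112 to 0.191. Both stayed within the spread of libraries.

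Several members changed sign, among them CENPX, called lower at -0.16 in the main fit. The others had not passed there, and CENPW, at -0.15, was the furthest of them from 0. With the length offset CENPN was at 0.05, CENPP at -0.05, CENPW at 0.03, CENPX at 0.04, KIF13A at -0.02, KIF1B at -0.10 and KIF1C at -0.07. With library size alone CENPN was at 0.05, KIF13B at 0.01, KIF21B at 0.08 and KIF3B at 0.004. KIF21B was at 0.002 with DESeq2 size factors and in DESeq2, 0.02 with upper quartile scaling and 0.01 with a mean count of at least 50. Without the filter CENPP was at -0.01 and KIF1C at -0.0004. With 1 library left out at a time, values ran from -0.02 to 0.13 for CENPB, -0.08 to 0.16 for CENPH, -0.01 to 0.12 for CENPI, -0.02 to 0.03 for CENPP, -0.09 to 0.13 for CENPS, -0.01 to 0.04 for KIF1C, -0.03 to 0.04 for KIF21B and -0.20 to 0.01 for KIF4A. The cause was not tested.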
